A study of Mus musculus with 11 samples.

Results

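The 9 genes described here make, convert and consume NAD. They are Nampt, Nmnat1, Nmnat2, Nmnat3, Nadk, Sirt1, Sirt3, Parp1 and Cd38. They were taken by gene symbol, and all 9 were found among the 24411 symbols that carry read counts in each of 11 mouse RNA-seq libraries. All 9 also passed the filter on low counts in each of the 4 comparisons. The libraries form 4 groups: corpus callosum labelled Bmal1-/- (BKO-CC, n = 2), wild-type corpus callosum (WT-CC, n = 3), neurospheres labelled Bmal1-/- (BKO-NSP, n = 3) and wild-type neurospheres (WT-NSP, n = 3). The corpus callosum is the myelinated tract between the hemispheres, and it was dissected as whole tissue. Neurospheres are floating clusters of stem and progenitor cells, here grown from the subventricular zone (SVZ) for 1 week with EGF at 20 ng/ml and heparin at 2 ug/ml. Mice of every group were 8 to 10 weeks old. No treatment is labelled, and strain, sex, the allele behind the Bmal1-/- label and the hour of collection are not given in the sources used here. Bmal1, listed under the symbol Arntl, encodes the partner of CLOCK in the transcription factor that drives the circadian clock.

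Cells build most of their NAD by salvage of nicotinamide, the product left when NAD is consumed. Nampt encodes the rate-limiting enzyme of that salvage, which makes nicotinamide mononucleotide, and the Nmnat genes encode the enzymes that turn the mononucleotide into NAD in the nucleus (Nmnat1), the cytosol and axon (Nmnat2) and the mitochondrion (Nmnat3). In mouse liver and fibroblasts Nampt is known as a target of CLOCK and BMAL1, and the NAD-dependent deacetylase SIRT1 is known to act back on that complex, a loop between the clock and metabolism.

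CLOCK and BMAL1 bind the E-box, most often with the letters CACGTG, and the start regions of the 9 genes were therefore searched for it. The windows came from RefSeq (GRCm38.p6, the assembly also called mm10) and ran from 250 bases before to 50 bases after each annotated start. They cover 12 starts and all 9 genes. CACGTG reads the same on both strands. It was in 3 of the 12 windows, those of Sirt1, Parp1 and 1 of the 2 starts of Nadk, against 7.15% of 32851 windows over all genes. The related letters CACGTT, searched on both strands, were in 1 of the 12, at Nmnat2, against 4.68% of all windows. The Nampt window held neither, which says only that these letters are not in that stretch. A match is a description of the letters and not evidence of binding. The 250 bases before the start are shown for the gene most often tied to BMAL1 and for the deacetylase of the loop, 5′ to 3′, with CACGTG in capitals. Nampt lies at chr12:32820335-32853369 and Sirt1 at chr10:63319005-63339035. The Nampt stretch is chr12:32820085-32820334 on the plus strand and the Sirt1 stretch is chr10:63339036-63339285 on the minus strand, where the 2 matches begin 115 and 43 bases before the start.
Nampt: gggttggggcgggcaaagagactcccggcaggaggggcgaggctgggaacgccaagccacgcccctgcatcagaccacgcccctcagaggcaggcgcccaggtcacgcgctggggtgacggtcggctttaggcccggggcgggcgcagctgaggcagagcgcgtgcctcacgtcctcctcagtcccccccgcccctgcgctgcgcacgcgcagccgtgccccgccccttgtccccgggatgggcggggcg
Sirt1: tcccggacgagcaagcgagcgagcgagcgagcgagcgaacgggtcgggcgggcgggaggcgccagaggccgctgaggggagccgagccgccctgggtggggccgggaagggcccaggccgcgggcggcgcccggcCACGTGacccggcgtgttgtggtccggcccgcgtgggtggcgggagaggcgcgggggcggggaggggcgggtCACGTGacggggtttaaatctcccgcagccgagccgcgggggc

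Gene counts summed to between 17450270 and 19717848 per library, so a gene with no count could still lie at up to 3 counts, or 0.133 to 0.210 CPM. CPM is a gene's count scaled to a common library total, here with TMM factors over all 11 libraries. Whether replicates are different animals or cultures is not stated in the labels. The p-values thus measure only how far these libraries spread, and that spread may be technical. The count of Arntl over the whole gene did not pass the test in either source, at log2 0.03 ± 0.14 in the callosum (edgeR adjusted p = 0.943) and -0.01 ± 0.17 in neurospheres (edgeR adjusted p = 0.983). It therefore gives no check of the label. The clock genes Dbp, Nr1d2 and Per3 passed the test in the callosum, at log2 fold changes of -2.87, -2.80 and -2.23. In neurospheres their values were -1.76, -4.11 and -2.43, and Nr1d2 was the 1 of the 3 that passed. All directions below are those of the labels.

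In the callosum, none of the 9 NAD genes differed between libraries labelled Bmal1-/- and wild type at an adjusted p under 0.05 by edgeR's quasi-likelihood test, the threshold at which a gene is called here. Over all 14198 genes tested the share called was 0.909% (0.521% higher and 0.387% lower). None of the 9 passed at an unadjusted p under 0.05 either, a level that 13.9% of all genes tested reached, nor did DESeq2 or limma-voom call any. Their median log2 fold change was 0.00, beside -0.01 over all genes tested. Summed astrocyte markers stood at 4471 to 4926 CPM in BKO-CC against 3020 to 3242 CPM in WT-CC. Of the 8 astrocyte markers, however, 1 was called higher and 1 lower, at a median log2 fold change of 0.08. Striatal neuron markers summed to 853 to 1116 CPM in BKO-CC against 953 to 3107 CPM in WT-CC, with 0 of 10 called. The part of these markers in the values of the members was not tested. In a fit with the striatal markers as a covariate no member was called. None was called without the covariate either, so that outcome does not bear on the part of the markers. Nmnat2, Nmnat3, Sirt3, Parp1 and Cd38 changed sign in that fit.

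Nampt was nearly level between the callosum groups. It stood at 10.6 and 12.9 CPM in BKO-CC, against 10.46, 12.8 and 12.3 CPM in WT-CC. One library labelled Bmal1-/- lay inside the wild-type range and the other just above it. The log2 fold change was 0.00 ± 0.17 (SE, edgeR adjusted p = 0.998), with a 95% interval from -0.38 to 0.38. A fall of the size seen for Dbp in the same libraries lies outside that interval, and changes of up to about 1.30-fold lie within it.

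The 3 adenylyltransferase genes did not pass. Nmnat2, the form of neurons and their axons, had the highest level per length of them (29.3 CPM per kb in BKO-CC and 29.4 in WT-CC) and stood at 147 and 124 CPM in BKO-CC, against 145, 134 and 128.5 CPM in WT-CC. The groups overlapped, and log2 fold was 0.01 ± 0.11 (edgeR adjusted p = 0.981). Nmnat1 was low throughout, with 30 and 44 counts in BKO-CC against 41, 45 and 58 counts in WT-CC, and its interval was wide, from -0.97 to 0.31. Of its transcript, 5.64% of the 50-base stretches also occur in other genes' transcripts. Nmnat3 differed more between the 2 Bmal1-/- libraries, 4.26 and 2.83 CPM, than among the wild-type libraries, 3.37 to 3.56 CPM, and its log2 fold change was 0.05 ± 0.25 (SE, edgeR adjusted p = 0.946).

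Nadk, the cytosolic kinase that turns NAD into NADP, was the 1 member whose callosum groups did not overlap. It stood at 61.1 and 67.0 CPM in BKO-CC, against 71.4, 68.7 and 72.1 CPM in WT-CC. The difference was small, at -0.13 ± 0.10 on the log2 scale (SE, edgeR adjusted p = 0.586). Groups that do not overlap were found for 32.4% of all genes tested in this comparison, so 1 member of 9 is below the share over all genes.

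Among the NAD consumers, the mitochondrial deacetylase gene Sirt3 stood at 62.9 and 52.4 CPM in BKO-CC, against 60.5, 52.9 and 58.6 CPM in WT-CC. Sirt1, the nuclear deacetylase of the loop described above, stood at 3.21 and 4.56 CPM in BKO-CC, against 3.92, 3.91 and 5.81 CPM in WT-CC. The groups overlapped for both genes. Both overlap exons of opposite-strand genes, and 26.2% of the Sirt3 reads counted by strand were left out of BKO-CC replicate 1, against 3.05% to 12.7% in WT-CC. No Sirt1 read was left out in this way in the callosum libraries. The log2 fold changes were 0.02 ± 0.12 for Sirt3 (SE, edgeR adjusted p = 0.948) and -0.21 ± 0.27 for Sirt1 (SE, edgeR adjusted p = 0.755). Parp1, whose enzyme spends NAD on poly-ADP-ribose at DNA breaks, stood at 94.4 and 93.1 CPM in BKO-CC, against 101, 83.3 and 89.1 CPM in WT-CC. The wild-type libraries enclosed both Bmal1-/- libraries, and the interval of -0.19 to 0.30 was among the narrowest of the 9. Cd38, which encodes an NAD-cleaving enzyme of the cell surface, had 19 and 11 counts in BKO-CC against 12, 21 and 15 counts in WT-CC. At such counts the interval ran from -1.01 to 0.92 on the log2 scale, so these libraries do not contradict a difference inside it. Its width includes the spread between libraries as well as the low counts.

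**Figure D1:**
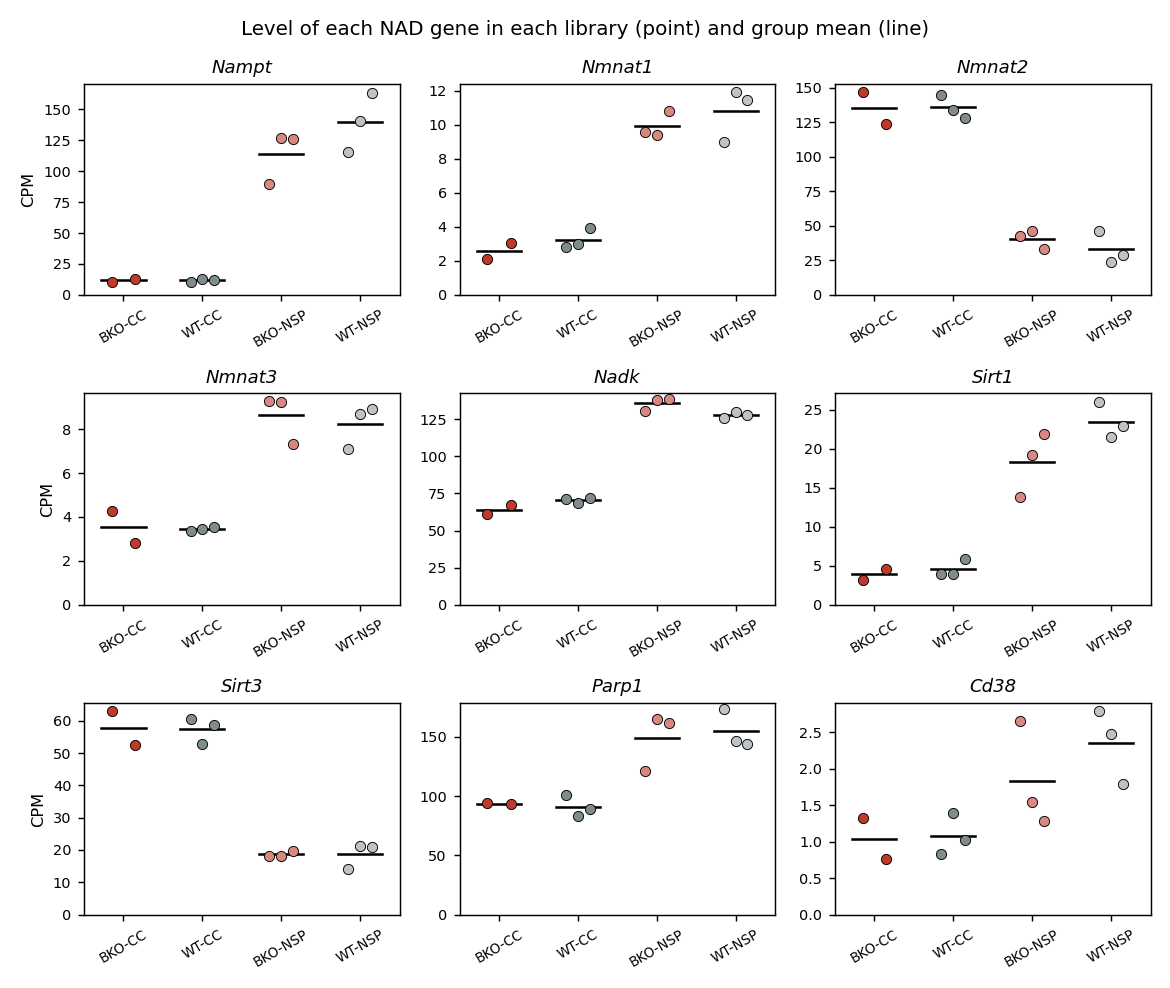
Level of each NAD gene in CPM (vertical axis, from 0) in each library (points) with the group mean (line), for callosum labelled Bmal1-/- (BKO-CC), wild-type callosum (WT-CC), neurospheres labelled Bmal1-/- (BKO-NSP) and wild-type neurospheres (WT-NSP). For Nampt the callosum libraries lie between 10.46 and 12.9 CPM and the neurosphere libraries between 89.3 and 163 CPM, while Nmnat2 and Sirt3 run the other way.

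In neurospheres, again none of the 9 was called, beside 0.00716% of the 13968 genes tested, which is the single gene Nr1d2. None of the 9 passed at an unadjusted p under 0.05, a level that 3.02% of all genes tested reached, and neither DESeq2 nor limma-voom called any. The median log2 fold change of the members was -0.05, beside -0.01 over all genes tested.

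Nampt stood at 89.3, 127 and 126 CPM in BKO-NSP, against 115, 141 and 163 CPM in WT-NSP. The 2 higher Bmal1-/- libraries lay within the wild-type range and replicate 1 lay below it. The log2 fold change was -0.29 ± 0.21 (SE, edgeR adjusted p = 0.798), with a 95% interval from -0.77 to 0.19. Sirt1 stood at 13.8, 19.1 and 21.9 CPM in BKO-NSP, against 25.9, 21.5 and 22.9 CPM in WT-NSP, with replicate 1 again the lowest. Its log2 fold change was -0.36 ± 0.21 (SE, edgeR adjusted p = 0.798).

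BKO-NSP replicate 1 stood apart, with 22.6% of its reads unmapped against 13.7% to 16.2% in the other neurosphere libraries. Longer transcripts also tended to lower fold changes in neurospheres. Spearman's rho was -0.61 over 13898 genes, a description, since the genes share the libraries. Nmnat2, Nampt and Sirt1 have the longest transcripts of the 9, at 4.63, 4.53 and 4.43 kb. With offsets for transcript length the log2 fold changes of Nampt and Sirt1 were -0.17 and -0.25, nearer to 0, and that of Nmnat2 was 0.47, against 0.30 without offsets. Without BKO-NSP replicate 1 Nampt came to -0.15 and Sirt1 to -0.20, while Cd38 came to -0.73, against -0.36 with it. None of these values was called.

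The remaining members in neurospheres did not pass and, Nadk apart, overlapped between genotypes. Nadk stood at 130.3, 138 and 138.5 CPM in BKO-NSP, against 126, 129.9 and 128 CPM in WT-NSP, so its libraries were just above wild type here and below wild type in the callosum. Its log2 fold change was 0.09 ± 0.14 (SE, edgeR adjusted p = 0.849), and 11.9% of all genes tested had groups that did not overlap. Nmnat2 varied widely, at 42.9, 46.1 and 33.0 CPM in BKO-NSP against 46.6, 24.1 and 28.7 CPM in WT-NSP. Wild-type replicate 1 was the highest of the 6 libraries and replicate 2 the lowest, and the log2 fold change of 0.30 ± 0.27 became 0.63 without wild-type replicate 1, still not called. The log2 fold changes of Nmnat1 (-0.12 ± 0.20), Nmnat3 (0.07 ± 0.21), Sirt3 (0.00 ± 0.20) and Parp1 (-0.05 ± 0.18) were each smaller than their SE. Cd38 had 60, 35 and 29 counts in BKO-NSP against 62, 54 and 40 counts in WT-NSP, and its interval ran from -1.19 to 0.48.

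**Figure D2:**
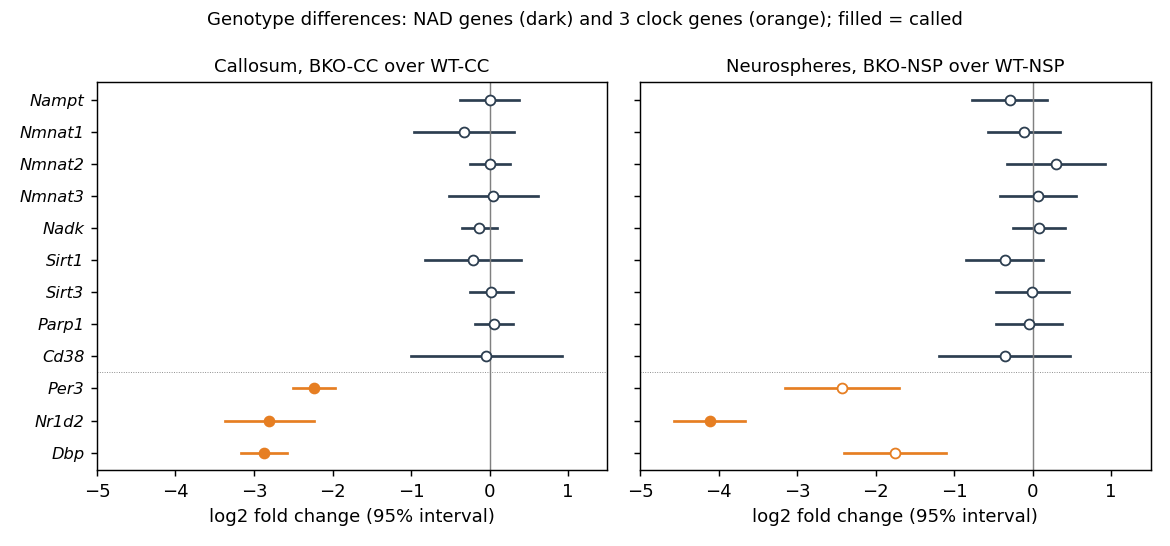
Log2 fold change with its 95% interval (horizontal axis) for the 9 NAD genes (dark) and 3 clock genes (orange) in the callosum (left) and in neurospheres (right), filled where called. Every interval of the NAD genes crosses 0, whereas those of the clock genes lie below -1.

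No difference in genotype effect between callosum and neurospheres passed the test for any of the 9, in 1 model of all 11 libraries in which 0.0131% of 15322 genes passed (Mmp14 and C4b, named after their values were seen). Nadk, low in one source and high in the other, had a difference of effects of -0.23 ± 0.18 on the log2 scale (SE, edgeR adjusted p = 0.999). For Nampt the difference was 0.28 ± 0.28, with an interval from -0.33 to 0.89.

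Between the wild-type sources all 9 genes were called, 7 lower and 2 higher in callosum than in neurospheres. This share has to be read against a background in which 85.8% of 14733 genes were called, 42% higher and 43.8% lower. The median log2 fold change of the members was -1.07, beside -0.06 over all genes tested. In bulk RNA, fewer cells of a type and less RNA per cell cannot be told apart. The sources also differed in library properties, such as unmapped reads (7.77% to 8.46% in callosum, 13.7% to 22.6% in neurospheres).

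Nampt had the largest difference of the 9. It averaged 11.9 ± 1.23 CPM in WT-CC and 139.7 ± 23.8 CPM in WT-NSP (SD, n = 3 each), 11.4-fold lower in callosum (log2 -3.51 ± 0.16, edgeR adjusted p = 3.50e-08). Sirt1 was 4.98-fold lower, at 4.55 ± 1.09 CPM in WT-CC and 23.4 ± 2.27 CPM in WT-NSP (SD, n = 3 each). The genes of the salvage enzyme and of the deacetylase of the clock loop were thus both low in the callosum counts. Both differences shrank with the GC offsets described below. Nmnat1 was 3.21-fold lower, at 3.26 ± 0.619 CPM in WT-CC and 10.80 ± 1.60 CPM in WT-NSP. Nmnat3 was 2.30-fold lower, Cd38 2.10-fold, Nadk 1.75-fold and Parp1 1.64-fold, and for each of these the 3 callosum libraries lay below the 3 neurosphere libraries, a separation found in 1 direction or the other for 87.8% of all genes tested.

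Nmnat2 and Sirt3 went the other way. Nmnat2 averaged 136 ± 8.45 CPM in WT-CC and 33.1 ± 11.9 CPM in WT-NSP (SD, n = 3 each), 4.23-fold higher in callosum (log2 fold change 2.08 ± 0.22, SE, edgeR adjusted p = 1.28e-05). Sirt3 averaged 57.3 ± 3.96 CPM in WT-CC and 18.7 ± 3.99 CPM in WT-NSP (SD, n = 3 each), 3.16-fold higher (1.66 ± 0.16, edgeR adjusted p = 7.11e-06). Of the 3 genes for the same reaction, Nmnat2 was thus higher in callosum and the nuclear and mitochondrial forms were lower.

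Markers of cell types also differed between the wild-type sources. All 9 markers of mature neurons were higher in callosum, and none was at 0 in any library. Their summed level was 9104 to 11805 CPM in WT-CC against 85.1 to 95.1 CPM in WT-NSP, so neuronal RNA was counted in the dissected tissue. All 10 striatal neuron markers were higher as well (953 to 3107 CPM in WT-CC, 86.0 to 164 CPM in WT-NSP). All 9 oligodendrocyte markers were higher too (22233 to 33414 CPM in WT-CC, 1920 to 2007 CPM in WT-NSP). The 10 cell cycle genes were all lower (62.6 to 91.5 CPM in WT-CC, 1204 to 1886 CPM in WT-NSP), as were all 8 stem and progenitor markers (264 to 342 CPM in WT-CC, 4029 to 5346 CPM in WT-NSP). Of 8 microglia markers 7 were higher, as were all 7 endothelial markers. Astrocyte markers were mixed, with 1 of 8 higher and 6 lower, and so were choroid plexus markers, with 3 of 5 tested higher and 1 lower. The part of all these cell types in the levels of the NAD genes was not tested.

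The libraries labelled Bmal1-/- gave a second look at the sources, chosen after the wild-type values were seen. Of the 9 genes, 8 were called in BKO-CC against BKO-NSP with the same sign, beside 72.6% of the 14883 genes tested, Nampt at -3.22 ± 0.27, Sirt1 at -2.18 ± 0.32, Nmnat2 at 1.78 ± 0.23 and Sirt3 at 1.68 ± 0.20 on the log2 scale (SE). Cd38 did not pass there (-0.77 ± 0.50, edgeR adjusted p = 0.206).

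Transcript composition moved strongly with the difference between sources. Over 14652 genes the log2 fold change rose with the GC content of the transcript (Spearman rho = 0.58, a description across genes that share libraries), with a median of -2.39 in the lowest of 5 equal groups by GC (31.0% to 44.6%) and of 1.63 in the highest (56.2% to 82.2%). Nampt (40.3% GC), Cd38 (40.9%) and Sirt1 (44.0%) all belong to the lowest group, in which 14.5% of genes were higher in callosum. The other 6 lie between 49.3% (Nmnat1) and 53.8% (Sirt3), in groups 3 and 4. Fold changes between genotypes rose with GC content too, at a rho of 0.33 in the callosum and 0.30 in neurospheres.

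**Figure D3:**
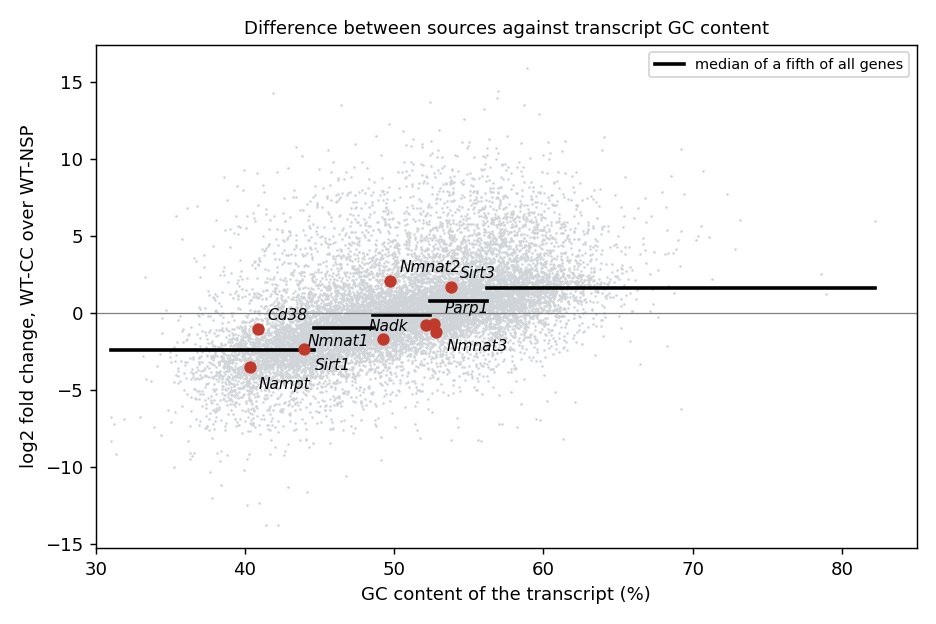
Log2 fold change of wild-type callosum over wild-type neurospheres (vertical axis) against the GC content of the longest transcript in percent (horizontal axis), for all tested genes (grey), the medians of 5 equal groups by GC (black lines) and the 9 NAD genes (red). Nampt, Sirt1 and Cd38 sit at the low-GC end, where the median of all genes is -2.39.

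With offsets that level this trend in each library, an alternative added after the trend was seen, the largest differences shrank and 1 turned. Nampt came to -0.76 ± 0.15 on the log2 scale, 1.69-fold lower in callosum (SE, edgeR adjusted p = 0.00119), and Sirt1 to -0.59 ± 0.19 (edgeR adjusted p = 0.0177). Cd38 turned to 1.53 ± 0.30, higher in callosum (edgeR adjusted p = 0.00121), so the data give no settled direction for it. Both ends of the range now belonged to Nmnat genes, Nmnat2 at 2.31 ± 0.22 and Nmnat3 at -1.70 ± 0.18. Nmnat1 (-1.35), Nadk (-1.17), Parp1 (-1.19) and Sirt3 (0.94) kept their sign and their call, and 79.4% of all genes tested were called. In the libraries labelled Bmal1-/- with the same offsets, Nampt (-0.49 ± 0.19, edgeR adjusted p = 0.0629) and Sirt1 (-0.45 ± 0.27, edgeR adjusted p = 0.180) did not pass, while 7 of the 9 and 61.8% of all genes tested did. In the callosum genotype comparison such offsets gave Nampt 0.13 ± 0.16, Sirt1 -0.09 ± 0.27 and Cd38 0.08 ± 0.41 on the log2 scale, none called. Whether the trend with GC comes from the cells or from library preparation cannot be told apart in this design.

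Levels of different genes were compared per kilobase of transcript. In WT-CC the order was led by Sirt3 (35.7 CPM per kb), Nmnat2 (29.4), Parp1 (23.5) and Nadk (22.4), and Parp1 and Nadk overlapped between libraries. A gap then separated these 4 from Nampt (2.62), Nmnat3 (1.60), Nmnat1 (1.23), Sirt1 (1.03) and Cd38 (0.331), of which Nmnat1 and Sirt1 overlapped. In WT-NSP Nadk (40.6) and Parp1 (39.9) led and overlapped, followed by Nampt (30.85), Sirt3 (11.7), Nmnat2 (7.16), Sirt1 (5.29), Nmnat1 (4.07), Nmnat3 (3.80) and Cd38 (0.720). Among these, Sirt3 overlapped Nmnat2, Nmnat2 overlapped Sirt1 and Nmnat1 overlapped Nmnat3. The libraries labelled Bmal1-/- gave the same order as wild type in the callosum. In neurospheres they differed in the places of Nmnat1 and Nmnat3, whose libraries overlapped. Nampt was thus in place 5 of the 9 in callosum and in place 3 in neurospheres, in counts per length that carry the same GC trend.

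The genes whose levels over the 11 libraries most resembled Nampt were Ufl1, Mier3 and Tbc1d15, out of 11694 with a mean of at least 5 CPM, by the root mean square difference of centred log2 CPM (0.09, 0.13 and 0.13). Their transcripts hold 39.7%, 40.9% and 39.8% GC, close to that of Nampt. For Sirt1 they were Msl3, Senp6 and Dclre1c (0.15, 0.16 and 0.16), with 44.5%, 44.8% and 39.6% GC. Between Nampt and Sirt1 themselves the measure was 0.61, the smallest from Nampt to any other member, and between Nampt and Nmnat2 it was 2.68, the largest. The place of Sirt1 among all 11694 genes is not given. The measure includes the difference between sources, in which Nampt (-3.51) and Sirt1 (-2.32) had the lowest log2 fold changes of the members. Both are in the lowest GC group, where the median over all genes was -2.39.

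The other genes of NAD metabolism were taken from a list of 34 that covers synthesis from tryptophan, salvage of nicotinic acid and nicotinamide riboside, NADP and transport, other consumers and disposal. In the callosum genotype comparison 24 were tested and none was called, at a median log2 fold change of 0.07, and in neurospheres 22 were tested and none was called, at a median of 0.04. At an unadjusted p under 0.05 there were 5 of 24 in the callosum, where 13.9% of all genes tested reached that level, and 0 of 22 in neurospheres, where 3.02% did. Of the 5, Parp3, a DNA-repair member of the Parp1 family, had 11.95 and 15.5 CPM in BKO-CC, against 7.43, 8.48 and 6.50 CPM in WT-CC. The groups did not overlap, which held for 32.4% of all genes tested. Its log2 fold change was 0.89 ± 0.19 and missed the threshold (edgeR adjusted p = 0.0765). Parp3 was called by DESeq2 (adjusted p = 0.0120) and by edgeR without the low-count filter (adjusted p = 0.0306). Both settings called more genes of all those tested, at 330 and 224 against 129. No gene of the list was called by limma-voom, with length or GC offsets, or with 1 library left out. An exon of Parp3 is overlapped by the opposite-strand gene Rrp9, and reads over such an overlap are ambiguous where strand is ignored. How many Parp3 reads were left out for this was not tested. The lowest value of the 24 was that of Slc12a8, reported as a carrier of nicotinamide mononucleotide, at -1.05 ± 0.31 (edgeR adjusted p = 0.199). In neurospheres the values ran from -0.46 ± 0.60 for Tnks, a tankyrase gene, to 0.39 ± 0.25 for Sirt6, a nuclear sirtuin gene. Tnks stood at 21.4, 157 and 158 CPM in BKO-NSP, against 141, 156 and 165 CPM in WT-NSP. Sirt6 stood at 17.3, 10.47 and 11.4 CPM in BKO-NSP, against 11.1, 8.78 and 9.97 CPM in WT-NSP. In both genes BKO-NSP replicate 1 was the library that lay far from the rest. No gene of the list passed the test of a difference in genotype effect between sources, where Parp3 had the highest value, 0.80 ± 0.38. Ido1 had the lowest, but its neurosphere libraries held 0 to 5 counts each, so the size of that value is not given.

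Between wild-type sources 23 of the 34 were tested, and 8 were higher and 13 lower in callosum, again beside 85.8% called over all genes. All 5 other sirtuin genes, Sirt2, Sirt4, Sirt5, Sirt6 and Sirt7, were higher, as was Sirt3, while Sirt1 was lower. Sirt2, Sirt4 and Sirt5 are named after their values were seen. Of the Sirt5 transcript, 36.2% of the 50-base stretches also occur in other genes' transcripts. Exons of Sirt2 are overlapped by the opposite-strand gene Nfkbib. Sirt6 averaged 51.8 ± 3.49 CPM in WT-CC and 9.96 ± 1.18 CPM in WT-NSP (SD, n = 3 each), 5.36-fold higher, and Sirt7, a nucleolar deacetylase gene, was 3.53-fold higher. Sarm1, whose enzyme destroys NAD in injured axons and is held in check by NMNAT2, averaged 81.2 ± 9.71 CPM in WT-CC and 19.0 ± 2.26 CPM in WT-NSP, 4.42-fold higher. Sirt6, Sirt7 and Sarm1 all have transcripts in the highest of the 5 GC groups. With GC offsets they came to 0.87, 0.26 and 0.73 on the log2 scale, still called, and Sirt4 (0.16, adjusted p = 0.368) was not.

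The lower genes included Nadk2, the mitochondrial NAD kinase gene, which averaged 21.9 ± 1.69 CPM in WT-CC and 153 ± 3.48 CPM in WT-NSP (6.75-fold lower). The tankyrase genes Tnks2 (10.3-fold) and Tnks (3.25-fold), the NADH hydrolase gene Nudt12 (8.14-fold) and the aldehyde oxidase gene Aox1 (31.9-fold), whose enzyme oxidises nicotinamide derivatives, were lower as well. With GC offsets Aox1 (-4.68 on the log2 scale), Tnks2 (-1.79), Nadk2 (-0.79), Tnks (-0.75) and Nudt12 (-0.44) were still called. Afmid, Nnt, Parp2 and Parp3 were still called lower too. Nmrk1 (-0.43), Parp4 (-0.28), Pnp (0.33) and Slc25a51 (0.21) were called lower without offsets but not called with them. Pnp and Slc25a51 also changed sign. Naprt (-1.61) and Nadsyn1 (-0.93) were called lower only with offsets. The genes added here are named after their values were seen. The highest value of the list was that of Ido2, a tryptophan dioxygenase gene, at 4.66 ± 0.44. It averaged 2.38 ± 0.568 CPM in WT-CC and 0.0902 ± 0.0445 CPM in WT-NSP. The WT-NSP mean lies below the floor of 3 counts (0.135 to 0.137 CPM), so the size of this difference is uncertain.

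The other 11 listed genes did not pass the low-count filter between the wild-type sources. They were Tdo2, Ido1, Kmo, Kynu, Haao, Qprt and Acmsd of the synthesis from tryptophan, Nmrk2 and Pnp2 of salvage, the Cd38 relative Bst1, and the nicotinamide methyltransferase gene Nnmt. Kmo had a single count in all 11 libraries. Ido1, a tryptophan dioxygenase gene like Ido2, was the exception among them, with 13 and 12 counts in BKO-CC against 9, 46 and 20 counts in WT-CC. It had 6 counts in all in BKO-NSP and 1 in WT-NSP. Each of the 9 members, in contrast, was counted in every library.

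**Figure D4:**
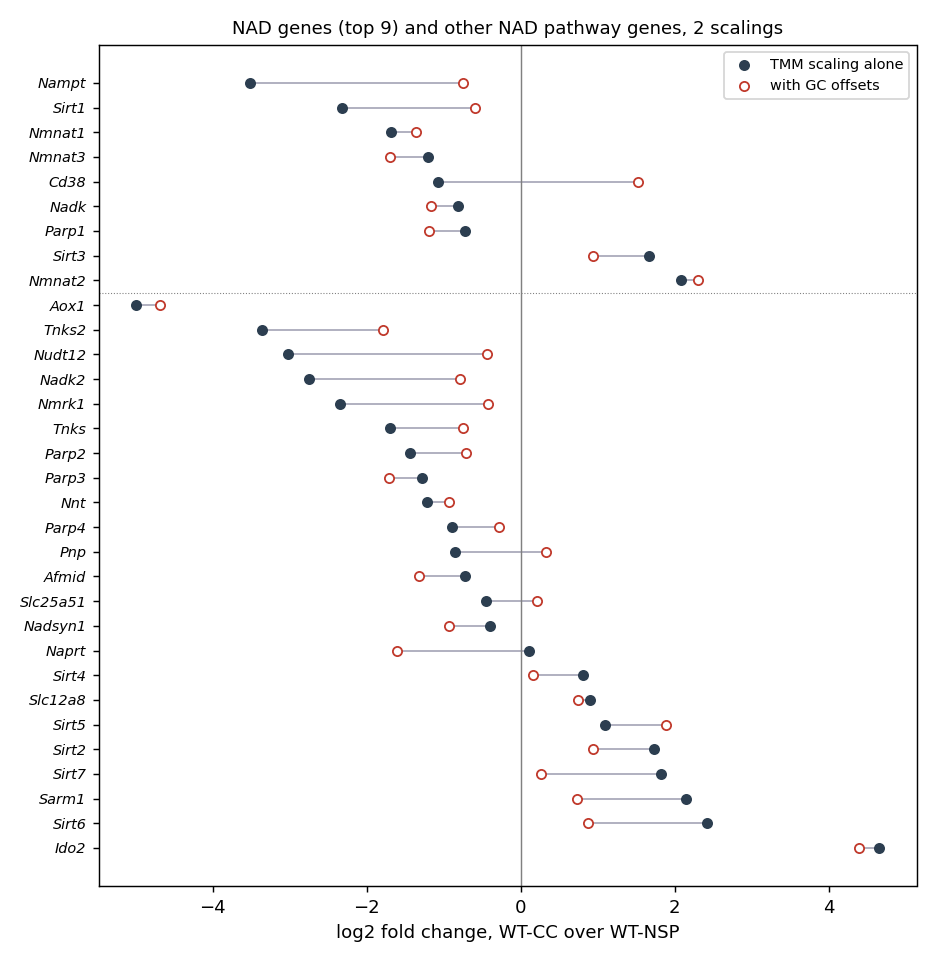
Log2 fold change of wild-type callosum over wild-type neurospheres (horizontal axis) for the 9 NAD genes (above the dotted line) and 23 other NAD genes (below it), with TMM scaling alone (dark) and with GC offsets (open red). Among the 9, Nampt moves from -3.51 to -0.76 and Cd38 crosses 0.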

How the data were processed

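Raw read counts per gene, deposited by the authors as 1 file per library, were used, in the column that ignores strand. Per the submitters' processing notes, reads were aligned with STAR 2.7.1a to mm10. No source used here names the annotation behind the counts. Rows of reads assigned to no gene (unmapped 7.77% to 22.6%, outside genes 8.55% to 16.6%, ambiguous 0.772% to 1.40% of reads) were left out. The row for multiply mapped reads holds 0. The first strand held 49.6% to 50.8% of the counts, so overlapping genes on opposite strands cannot be told apart.

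Genotypes were compared within each source, wild-type sources with each other, and genotype effects between sources in a model of 11 libraries. The test was edgeR 4.0.16 (R 4.3.3; glmQLFit with robust = TRUE, glmQLFTest, two-sided, TMM, filterByExpr, Benjamini-Hochberg over all genes tested). It was also run on simulated counts with a common mean per gene and added changes. These held no trend with GC content or length and no library that stood apart, so that run does not bear on such features. A gene is called at an adjusted p under 0.05. SE is the log2 fold change over the square root of F; intervals are 95%. Alternatives used DESeq2 1.42.0, limma 3.58.1, other scalings and left-out libraries. Length and GC content are of the longest GENCODE M21 transcript (98.5% of symbols matched), with a loess span of 0.3 for offsets. The 9 genes, the list of 34 other NAD genes and the naming rule (all 9, called list genes up to 8 by p, the extremes of each comparison, 4 genes as a check of the label, and the nearest genes to Nampt and Sirt1) were chosen with earlier results of these data known. Within groups, replicates differed by 6.85 to 132 times sampling noise (chi-square per degree of freedom), and each was kept. Floors from counts cover counting error only, while the 95% intervals also include the spread between libraries.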

Additional observations from a re-analysis of the deposited data

Results flagged for a closer look

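Sirt3 stood out in data outside the main measurement. The columns that count each strand held 320 more Sirt3 reads in sum than the column that ignores strand in BKO-CC replicate 1, against 27 to 116 more in the 3 wild-type callosum libraries and 25 in BKO-CC replicate 2. Exons of Psmd13 and Ric8a overlap Sirt3 on the opposite strand, and reads over such an overlap are ambiguous where strand is ignored. The share left out was 26.2% in BKO-CC replicate 1, and 3.05% to 12.7% in WT-CC. With both strand columns summed the callosum log2 fold change of Sirt3 was 0.20 ± 0.17 (SE, edgeR adjusted p = 0.643), not called. Single libraries were not tested for lying apart within their groups of 2 or 3.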

How the results depend on the processing

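No setting called any of the 9 genes in either genotype comparison or in the difference of genotype effects, and 7 to 9 were called between sources. Of the values of single members, 113 of 135 in the callosum, 124 of 135 in neurospheres, 148 of 153 between sources and 155 of 171 for the difference of effects kept their direction and side of the threshold.

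Over all genes, the callosum count of 129 became 224 with no filter, 330 by DESeq2 and 33 in 1 model of 11 libraries, and 27 to 192 with 1 library left out (73 without WT-CC replicate 2, 27 without WT-CC replicate 3, 49 without BKO-CC replicate 1). With no filter and by DESeq2, 1 other NAD gene (Parp3) was called. The neurosphere count of 1 became 5 with no filter, 34 by DESeq2, 2 by limma-voom, 7 with length offsets and 19 in the model of 11, and 1 to 5 with 1 library left out (5 without BKO-NSP replicate 1). The count of 2 for the difference of effects became 37 by DESeq2, 9 with length offsets and 4 with GC offsets, and 1 to 10 with 1 library left out (10 without BKO-NSP replicate 1). In the libraries labelled Bmal1-/- with GC offsets, 12 of 24 other NAD genes tested were called between sources, beside 61.8% of all genes.

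The labels do not say that the numbers mark shared animals or days, so they were not taken as pairs. Same-numbered libraries correlated at 0.05 and 0.00 in the callosum and at 0.27, -0.03 and 0.33 in neurospheres. Between sources the values were 0.01, 0.11 and 0.01. Unlike-numbered libraries in neurospheres ran from -0.41 to 0.33. Deviations centred within such small groups are tied to each other, so these correlations cannot decide on pairing. With the replicate block, 2 genes were called in neurospheres and 1 for the difference of effects, and Nmnat2 turned to -0.0357 in the callosum and Sirt3 to 0.0174 in neurospheres.

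Other uncalled values changed sign near 0 (log2). In the callosum these were Sirt3 with length (-0.0348) and GC offsets (-0.0133), Cd38 with GC offsets (0.0845), Nampt with strand columns summed (-0.0016), Nampt (-0.0118) and Nmnat2 (-0.0072) in the model of 11, and Nmnat2 (-0.0815), Nmnat3 (-0.0312), Sirt3 (-0.11), Parp1 (-0.0746) and Cd38 (0.24) with the striatal covariate. In neurospheres they were Sirt3 by limma-voom (0.0188), and Nmnat3 (-0.0728) and Parp1 (0.01) with length offsets. For the difference of effects they were Sirt3 by limma-voom (-0.0153) and Nmnat3 with length offsets (0.10). Between sources, Cd38 reversed and was called with GC offsets (1.53), also in the libraries labelled Bmal1-/- (1.75). The causes were not tested.

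With 1 library left out, callosum values ran from -0.14 to 0.14 for Nampt, -0.12 to 0.14 for Nmnat2, -0.27 to 0.32 for Nmnat3, -0.48 to 0.0233 for Sirt1, -0.11 to 0.16 for Sirt3 and -0.49 to 0.31 for Cd38. Neurosphere values ran from -0.73 to -0.15 for Cd38, -0.02 to 0.19 for Nmnat3, -0.13 to 0.0735 for Parp1 and -0.16 to 0.0921 for Sirt3. Differences of effects ran from -0.52 to 0.0199 for Nmnat1, -0.35 to 0.23 for Nmnat3, -0.15 to 0.37 for Sirt1, -0.12 to 0.17 for Sirt3, -0.0221 to 0.17 for Parp1 and -0.15 to 0.69 for Cd38. Where 1 callosum library labelled Bmal1-/- remained, it was assumed to vary like the others. Depth limits Cd38 most, at 11 to 62 counts a library.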

Other observations

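Nnt, the mitochondrial enzyme gene that passes hydride from NADH to NADP, varied widely between replicates. It stood at 17.6 and 11.5 CPM in BKO-CC, against 17.8, 22.3 and 11.9 CPM in WT-CC. In neurospheres it stood at 29.7, 64.8 and 24.9 CPM in BKO-NSP, against 67.9, 28.9 and 28.2 CPM in WT-NSP, so 1 library of each genotype was high. The gene is named here after its values were seen.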
